A study of Drosophila melanogaster with 3 samples.

Results

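Runt-GFP peaks at divergent promoters are the peaks of the authors' reproducible list whose summit lay within 500 bases of at least 1 plus-strand and at least 1 minus-strand protein-coding transcript start. There were 369 of them among 3065 peaks (12.04%). They were chosen by summit position and gene models alone, and no measured height entered the choice. A further 911 peaks had a start within 500 bases on 1 strand only and are called one-directional promoter peaks, and 1785 had no protein-coding start within 500 bases.

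The samples were 3 biological replicates of chromatin immunoprecipitation with sequencing (ChIP-seq) on whole Drosophila melanogaster embryos aged 0 to 16 hours. The flies were a transgenic line that stably expressed Runt carrying GFP at its C-terminus, and an antibody against GFP was used. The labels name neither the promoter driving the transgene nor the sex of the embryos, and whole embryos of this age span mix many tissues and stages. There was 1 group, with no second condition and no embryos lacking the tag among the samples, and all 3 replicates were called against the same control.

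Runt is a DNA-binding protein of the RUNX family, known in the fly embryo as a pair-rule segmentation factor that also helps to activate Sex-lethal early in females. RUNX proteins bind DNA together with a CBF-beta partner, which in the fly is encoded by Bgb and Bro. A divergent promoter is a stretch of DNA with a gene leading away on either side. In the compact fly genome many such pairs join housekeeping genes, and their promoters are known for the elements DRE (bound by the factor DREF), Motif 1 (bound by M1BP), Motif 6, Motif 7 and the BEAF-32 site rather than for a TATA box.

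The sequences between the starts of selected pairs show what these peaks lie on. They are from the Release 6 (dm6) genome, plus strand, 5′ to 3′, so the gene on the left is transcribed leftwards and the gene on the right rightwards. Each runs from start to start, or over the 201 bases around the summit where the starts are farther apart, and none overlaps an annotated exon. The first 3 belong to pairs among the 12 strongest peaks and show the AT-rich sequence at their summits, with the 51 bases centred on the summit in capitals.
Art3-mRpS10, chr3R:15229409-15229664: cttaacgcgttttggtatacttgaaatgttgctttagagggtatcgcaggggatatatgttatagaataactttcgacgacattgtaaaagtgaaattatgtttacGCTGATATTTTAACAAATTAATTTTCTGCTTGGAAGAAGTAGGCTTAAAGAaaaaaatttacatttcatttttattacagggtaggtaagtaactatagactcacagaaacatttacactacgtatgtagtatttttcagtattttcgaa
CG5611-Mtl, chr3R:27636069-27636269: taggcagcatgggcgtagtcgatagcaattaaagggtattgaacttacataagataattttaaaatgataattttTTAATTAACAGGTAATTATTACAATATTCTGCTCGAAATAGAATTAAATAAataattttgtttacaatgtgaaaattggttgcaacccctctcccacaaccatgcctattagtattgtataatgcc
CG13390-CG17294, chr2L:8376798-8377034: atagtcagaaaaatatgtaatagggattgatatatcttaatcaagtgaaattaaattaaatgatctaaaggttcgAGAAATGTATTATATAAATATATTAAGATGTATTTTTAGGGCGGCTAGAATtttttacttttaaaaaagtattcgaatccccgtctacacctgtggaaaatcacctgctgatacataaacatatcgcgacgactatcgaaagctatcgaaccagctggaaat
The next 2 are among the few that hold the RUNX consensus near the summit, with its 7 bases in capitals.
tefu-Hsc70-4, chr3R:15242478-15242678: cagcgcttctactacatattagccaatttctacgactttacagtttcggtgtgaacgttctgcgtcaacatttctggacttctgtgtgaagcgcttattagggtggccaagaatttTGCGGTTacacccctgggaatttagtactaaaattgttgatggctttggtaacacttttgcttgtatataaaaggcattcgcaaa
Nelf-E-RpL14, chr3L:8600880-8601005: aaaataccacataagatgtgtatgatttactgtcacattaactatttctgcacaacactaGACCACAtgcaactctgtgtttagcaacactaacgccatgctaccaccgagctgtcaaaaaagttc
The next 3 hold the DRE, with its 8 bases in capitals, and RpL34a-Trmt61 has a copy beside either start.
RpS25-CG4820, chr3R:11216288-11216534: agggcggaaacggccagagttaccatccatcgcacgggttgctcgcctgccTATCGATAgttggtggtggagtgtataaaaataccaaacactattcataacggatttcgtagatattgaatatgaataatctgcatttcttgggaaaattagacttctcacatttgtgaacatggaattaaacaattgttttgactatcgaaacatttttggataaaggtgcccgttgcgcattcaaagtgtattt
RpL34a-Trmt61, chr3R:26059268-26059495: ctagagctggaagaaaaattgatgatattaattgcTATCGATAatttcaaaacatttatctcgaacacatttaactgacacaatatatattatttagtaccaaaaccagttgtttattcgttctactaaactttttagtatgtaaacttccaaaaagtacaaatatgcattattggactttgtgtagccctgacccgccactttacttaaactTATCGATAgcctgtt
CG32856-Rbf2, chr3R:15965352-15965445: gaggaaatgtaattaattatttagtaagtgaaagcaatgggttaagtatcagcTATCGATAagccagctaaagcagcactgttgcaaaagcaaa
The last holds Motif 1, with its 8 bases in capitals, beside the start of the ribosomal protein gene RpLP1.
CG13690-RpLP1, chr2L:419653-419951: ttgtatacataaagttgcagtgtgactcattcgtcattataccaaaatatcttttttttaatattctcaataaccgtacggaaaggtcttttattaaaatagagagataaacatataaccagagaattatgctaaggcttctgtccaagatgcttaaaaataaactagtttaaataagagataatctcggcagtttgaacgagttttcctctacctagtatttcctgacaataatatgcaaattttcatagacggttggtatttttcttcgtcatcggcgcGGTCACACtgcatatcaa

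Peaks were densest in sequence that had starts on both strands. Such sequence covered 1.68 Mb, or 1.25% of the 6 chromosome arms, and held 220.3 IDR peaks per Mb. In the replicates' own 3065 strongest peaks the density there was 249, 216 and 222 per Mb in replicates 1, 2 and 3, a mean of 229 ± 17.6 (SD, n = 3). Sequence with starts on 1 strand only held 66.7 peaks per Mb (69.4 ± 2.24 in the replicates), and sequence with neither held 15.1 (14.6 ± 0.289). The 3 replicates did not overlap between these kinds of sequence. The ratio of divergent over one-directional density was 3.30 (95% exact interval 2.92 to 3.73, counting error only; exact binomial test, two-sided, p = 6.33e-69, with peaks as the units), and it was 3.62, 3.01 and 3.29 in the replicates.

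Most annotated divergent promoters held no peak of the IDR list. Of 2536 annotated stretches within reach of starts on both strands, 362 held an IDR summit (14.3%, 95% exact Clopper-Pearson interval 12.9 to 15.7), and 14.8% ± 1.25 (SD, n = 3) did so in the replicates' own lists. With the full pooled list of 30000 peaks the number was 1159 (45.7%). By the distance between the nearest opposite starts, the share was 14.5% of 408 stretches with starts up to 100 bases apart, 16.9% of 557 with over 100 to 250 bases and 19.9% of 899 with over 250 to 500 bases. Their intervals overlap (11.2 to 18.3, 13.9 to 20.3 and 17.4 to 22.7), and the differences among them were not tested. Stretches with starts over 500 bases apart gave 4.63% of 605, and they are also the shortest, with a median length of 328 bases against 666 in the class before. Per Mb of such stretches, IDR summits numbered 151.1, 204.9, 306.4 and 157.9 from the shortest to the longest distance between starts. Differences among these densities were not tested.

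**Figure D1:**
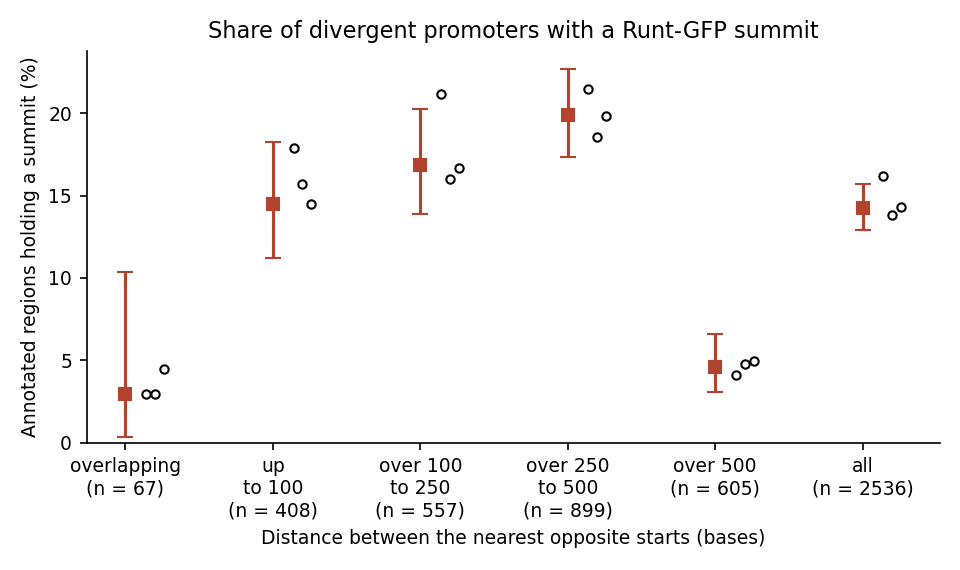
Share of annotated divergent promoters that held a Runt-GFP summit, by the distance between the nearest opposite starts in bases. Squares are the IDR list with 95% exact intervals and open circles are the 3 replicates' own strongest peaks; the share was 19.9% for starts over 250 to 500 bases apart and 4.63% for those farther apart.

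A pair of summits fell in 7 of these stretches, and 1 summit in the other 355. The strongest of the 7 lay between RpS27, a protein of the small ribosomal subunit, and the nuclear pore gene Nup37, with summits at ranks 286 and 2223 of the IDR list. The next were the stretch shared by CG8229, CG33199 and Tom7, a subunit of the mitochondrial import receptor (ranks 500 and 1625), and that of the co-chaperone gene DnaJ-H and the deacetylase gene Sirt1 (ranks 989 and 2015). Replicate 1's own strongest peaks placed 1 summit in each of the 7, and replicates 2 and 3 placed a pair in some of them.

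The X chromosome held fewer of these peaks than its divergent promoters would give at the autosomal density. There were 31 on the X, or 120.0 per Mb of divergent sequence, and 338 on arms 2L, 2R, 3L and 3R, or 239.9 per Mb. The ratio was 0.5002 (95% exact interval 0.334 to 0.723; exact binomial test, two-sided, p = 6.97e-05), and it was 0.547, 0.511 and 0.462 in the replicates' own lists (0.507 ± 0.0423, SD, n = 3). One-directional promoter peaks showed no such gap: their ratio was 1.00 (0.838 to 1.19; exact p = 0.965), and 0.959 ± 0.0115 in the replicates. The ratio of these 2 ratios was 0.499 (95% Wald interval 0.333 to 0.749; exact conditional test on the counts, two-sided, p = 0.000501). It was 0.568, 0.540 and 0.478 in the 3 replicates. These tests were added after the data had been seen. Each of these autosomal arms lay above the X, with 253.5 per Mb on 2L, 216.6 on 2R, 250.6 on 3L and 240.1 on 3R. Chromosome 4 held none, but it has only 0.00773 Mb of divergent sequence, too little to compare.

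Counted over stretches instead of bases, 30 of 397 on the X (7.56%) and 332 of 2127 on the autosomes (15.6%) held an IDR summit. In the longest list, the 30000 pooled peaks, the shares were 40.3% and 47.0%. The X was the lower in every class of distance between starts: 10.9% against 15.2% up to 100 bases, 9.21% against 18.3% over 100 to 250, 8.57% against 22.0% over 250 to 500 and 3.67% against 4.88% beyond.

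**Figure D2:**
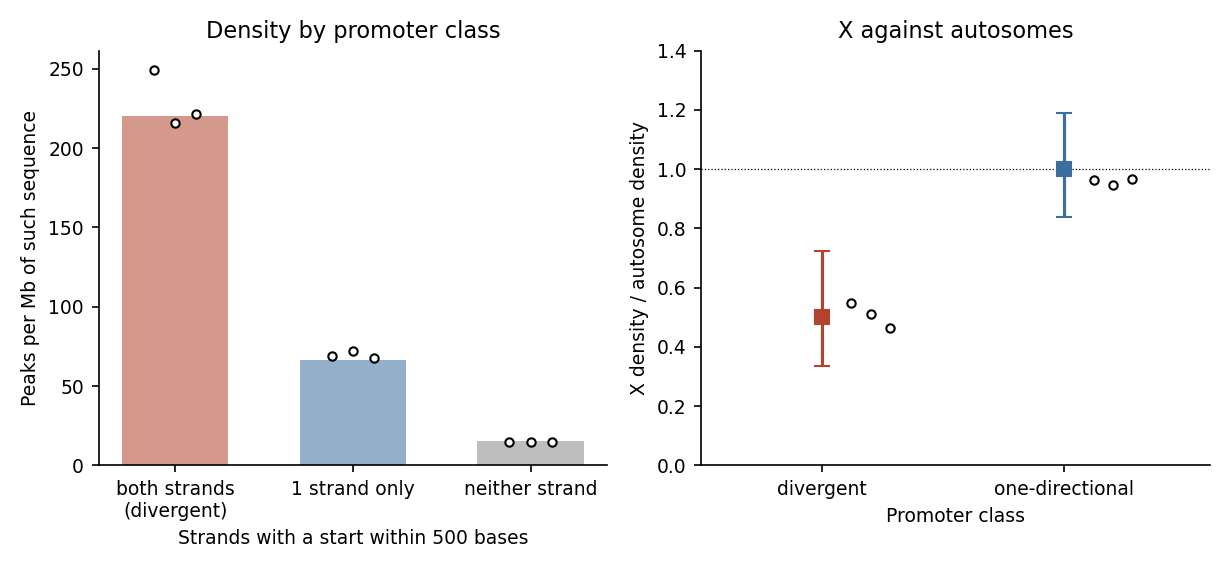
Left, Runt-GFP peaks per Mb of sequence with protein-coding starts within 500 bases on both strands, 1 strand or neither; bars are the IDR list and open circles the 3 replicates' own strongest peaks. Right, X density divided by autosome density for divergent and one-directional promoters; squares are the IDR list with 95% exact intervals, open circles are the replicates, and the dotted line marks 1. The divergent ratio was 0.5002 and the one-directional ratio 1.00.

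Summits sat between the paired starts more often than the sequence itself did. In 365 of the 369 the peak lay at a head-to-head pair, with the minus-strand gene on the lower side. Of the divergent bases 96.99% lie at such a pair too, so this count follows largely from the choice of members. In 289 (78.3%, 95% exact interval 73.8 to 82.4) the summit lay between the nearest start of either strand, and 78.5% ± 1.91 (SD, n = 3) did so in the replicates. By bases, 40.4% of divergent sequence lies between the starts. The distance between the starts had a median of 276 bases and ran from −268, where transcripts overlap, to 897. The nearest start was a median of 98 bases from the summit and the farther one 195. Of the summits between the starts, 137 were nearer the plus-strand start, 151 nearer the minus-strand start and 1 lay midway. In all, 264 members (71.5%) had their summit within 100 bases of the midpoint. One-directional peaks lay a median of 183 bases from their nearest start and upstream of it in 75.9%. Members have starts within the limit on both strands by choice, so their nearest distance is the smaller of a pair and is not compared with this one.

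The share of summits between the starts depends on the room there by the choice of members itself, so each share stands beside that of the bases in reach. Among 40 members with starts up to 100 bases apart, 11 summits lay between them (27.5%), against 7.46% of the bases in reach of such starts. The share was 74.7% of 95 with over 100 to 250 bases (24.3% of bases) and 91.2% of 193 with over 250 to 500 (54.03% of bases). Beyond 500 bases a summit within the limit of both starts can only lie between them, as all 31 did. These shares were not tested by class. Of the 6 head-to-head pairs with the shortest distances, 5 are given here and are examples of the first class. The starts of dpa, which encodes the replicative helicase subunit Mcm4, and didum, a myosin V, are 2 bases apart, and the summit lay 96 bases inside dpa. For CG3032 and CG4593 (6 bases apart) the summit lay 103 bases to one side. E(z), the histone methyltransferase of Polycomb repressive complex 2, and Cnep1r2 start 16 bases apart, and the summit lay 124 bases inside E(z), in a window of 8.91% GC. At CG12213 and GC1, a mitochondrial glutamate carrier (17 bases), the summit was 74 bases from the nearer start. Only at the serine tRNA synthetase gene SerRS and CG17260 (8 bases), among these 5, was the summit close to both, at 13 and 5 bases.

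**Figure D3:**
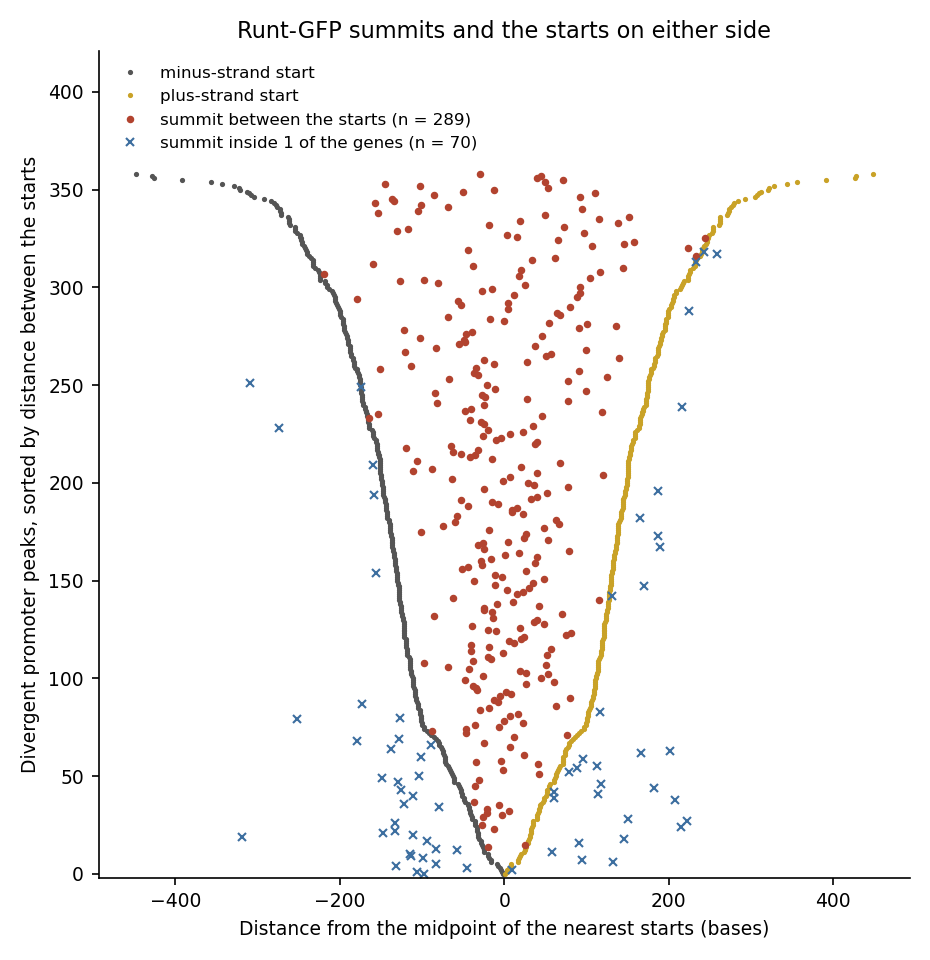
Position of the summit and of the nearest minus-strand and plus-strand starts, in bases from the midpoint of these starts, for the 359 divergent promoter peaks whose starts do not overlap and lie head to head, sorted by the distance between the starts. Filled circles are the 289 summits between the starts and crosses the 70 summits inside a gene, which gather at the short distances at the bottom.

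The 4 members that were not head to head had overlapping transcripts near the summit. They lay at CG31808 and the cytochrome c gene Cyt-c-d (rank 110), at the pair slv and sut1 (rank 815), at p and CG8036 (rank 960) and at PNPase and the kinase gene Gprk2 (rank 1885). At the edge of the 500-base limit, the last members inside had their farther start 499 bases away (Rok, a protein kinase, paired with RpS19a), 492 bases (imd, with Dp1) and 489 bases (CG32100, with app). The first peaks outside had it at 502 bases (CG12194, with tank), 506 bases (CG15528, with Jasper) and 506 bases (Sgt, with BicD, an adaptor of dynein). Their ranks, 2120, 2441 and 776 inside and 106, 1367 and 2717 outside, did not separate them.

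Divergent promoter peaks were spread over the whole IDR list, from rank 10 to rank 3058 with a median of 1303. The list is ranked by the authors' signal, which is theirs and is used only within a list. Among the 1532 strongest IDR peaks, 50% of the list by construction, lay 209 (56.6%) of them and 491 (53.9%) of the one-directional peaks. The difference of 2.74 percentage points (95% interval −3.29 to 8.67) did not pass Fisher's exact test (two-sided p = 0.386). It passed among peaks matched in replicates 2 and 3, without replicate 1 (6.54 points, Fisher's exact test, p = 0.0485), and in the list of 6130 pooled peaks (7.35 points, p = 0.00155), and fell to −0.202 points with a 1000-base limit. Peaks overlapped in all 3 replicates' own 3065 strongest peaks made up 57.7% of the IDR list, 62.9% (232) of divergent and 60.9% (555) of one-directional promoter peaks. That difference was 1.95 points (−3.97 to 7.70; Fisher's exact test, p = 0.527). Without replicate 1 it was −3.74 points, with no call. Of the other members, 83 were matched in 2 replicates, 52 in 1 and 2 in none. In the replicates' full lists of 30000 peaks 362 of the 369 were overlapped in all 3. The summit of the matching peak lay a median of 29, 16 and 16 bases away in replicates 1, 2 and 3.

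The 12 strongest members lay at ranks 10 to 60, and each was among the strongest peaks of all 3 replicates. The first (chromosome 3R, summit 15229540) lay between Art3, an arginine methyltransferase (FBgn0038306), and mRpS10, a protein of the mitochondrial small ribosomal subunit (FBgn0038307). It was 132 bases from one start and 125 from the other, and ranked 9, 10 and 16 in the replicates. The second was at mRpS23, of the same subunit, and CenG1A, which encodes an Arf GTPase-activating protein, at rank 15 (21, 12 and 14 in the replicates). Rank 16 was a peak 73 bases inside Chro, which encodes the chromodomain protein Chromator of interbands and domain borders, next to the TFIIH subunit gene Ssl1 (19, 11 and 23). These 3 kept a place among the first 23 peaks in every replicate.

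The other 9 of the 12 were at CG11309 and CG7632 (rank 23), the F-box gene Fbw5 and CG9147 (32), CG5611 and the small GTPase gene Mtl (34), CG13390 and CG17294 (39), and Pdrg1 and Pal1, a peptide-amidating enzyme (41). They went on with Tcs5 and the ESCRT-III gene CHMP2B (49), the cap-binding repressor gene eIF4EHP and CG18428 (50), CG1602 and PIG-G of GPI-anchor synthesis (59), and Acbp1 and the mechanosensitive channel gene Piezo (60). Replicate ranks of the 12 ran from 9 to 129, and the widest spread was at CG1602 and PIG-G, with 129, 54 and 37. The GC content within 50 bases of these summits ran from 15.8% at CG5611 and Mtl to 32.7% at Chro and Ssl1. None of the 12 held the RUNX consensus or the DRE in that window.

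The RUNX consensus was rare at these summits. It was searched on both strands as TGTGGTT and as TGTGGTC, and likewise as TGCGGTT and as TGCGGTC, within 50 bases of the summit, a window of 101 bases. It was found at 21 of 369 summits (5.69%, 95% exact interval 3.56 to 8.57), against 9.36% of all IDR summits. Flank windows of the same width were centred 500 bases towards higher coordinates, at or past a plus-strand start by the choice of members. They held the consensus in 17 (4.61%). The difference of 1.08 percentage points (95% interval −2.19 to 4.36) did not pass the exact McNemar test (two-sided p = 0.627, adjusted p = 0.684 over the 12 sequences searched). In the replicates' own lists the share was 5.04%, 6.08% and 5.39% at summits (5.50% ± 0.529, SD, n = 3) and 4.59% ± 0.651 in flanks, and these overlapped. One-directional promoter summits held it in 6.59% (flanks 2.85%), which did not differ from divergent ones by Fisher's exact test (−0.895 points, interval −3.54 to 2.30, p = 0.613). With starts required within 250 bases the difference was −5.36 points (Fisher's exact test, p = 0.00213). Summits without a start within 500 bases held it in 206 of 1785 (11.5%; flanks 3.75%), more often than divergent ones (Fisher's exact test, p = 0.000533, a comparison added after the data had been seen).

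The 5 strongest members with the consensus lay at ranks 549 to 718. The first was at CG10973 and Vps13D, a lipid transfer protein. The second, at rank 577, had its summit 5 bases upstream of Bgb (FBgn0013753), which encodes the CBF-beta partner of Runt, and 471 bases from Mettl2. There the match lay 23 bases from the summit, inside the transcript, and the peak ranked 893, 490 and 521 in the replicates. The others were at tefu, the fly ATM kinase, and the chaperone gene Hsc70-4 (621), at Kap-alpha3, an importin, and Son (658), and at Nelf-E, a subunit of the pausing factor NELF, and RpL14 (718). In the sequence between tefu and Hsc70-4 printed above, the match begins 16 bases from the summit, and in that of Nelf-E and RpL14 45 bases from it. Over all members, 8 of 23 matches, at 21 summits, lay between the nearest starts (34.8%). The other sequences searched ran from 62.1% for the initiator to 92.3% for the DRE (12 of 13), with the BEAF-32 site at 73 of 82. The share of the searched bases that lies between the starts is not given here, and these shares were not tested.

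Of the 5 elements known from housekeeping promoters, 4 were more frequent at the summits than 500 bases away, and 2 of these calls, those of the DRE and Motif 6, held without each replicate. The flanks lie at or past a plus-strand start by the choice of members, so this contrast sets promoter sequence against sequence beyond a start. It cannot tell peaks from divergent promoters in general, and stretches with and without a summit are compared further below. The DRE (TATCGATA) was found at 13 summits (3.52%; 0.718% of all IDR summits) and in 0 of 369 flanks, which allows a share of up to 0.813% (exact McNemar test, adjusted p = 0.000977). Motif 6 (GTATATTT or GTATTTTT) was found at 30 (8.13%; 4.4% of all IDR summits) against 3 flanks (exact McNemar test, adjusted p = 8.41e-06). In the replicates the DRE was at 3.74% ± 1.75 (SD, n = 3) of summits and in no flank, and Motif 6 at 7.47% ± 0.198 against 0.863% ± 0.276. With windows of 25 bases either side the DRE call ended (1.63 points, exact McNemar test, adjusted p = 0.0938). That of Motif 6 held (2.98 points, exact McNemar test, adjusted p = 0.0443). The BEAF-32 site (CGATA, which the DRE contains) was at 69 summits (18.7%; 13.3% of all) against 39 flanks (exact McNemar test, adjusted p = 0.00517), and Motif 1 (GGTCACAC) at 11 (2.98%; 0.979% of all) against 2 (adjusted p = 0.0385). These calls ended when a replicate was left out: the adjusted p was 0.466, 0.201 and 0.0890 for BEAF-32 and 0.214, 0.385 and 0.105 for Motif 1 without replicates 1, 2 and 3.

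The TATA box sequence (TATAAA) was at 119 summits (32.2%; 22.3% of all) against 16 flanks (4.34%, exact McNemar test, adjusted p = 2.45e-20), and the GATA sequence (AGATAA) at 32 (8.67%; 9.1% of all) against 11 (adjusted p = 0.00459). GAGA (GAGAG) went the other way, with 27 summits (7.32%; 11% of all) and 57 flanks (exact McNemar test, adjusted p = 0.00193). With flanks on the lower side neither the GATA call (4.07 points, exact McNemar test, adjusted p = 0.0714) nor that of GAGA (−4.07 points, adjusted p = 0.115) held. That of GATA also ended with flanks 1000 bases away (exact McNemar test, adjusted p = 0.0732), and both ended with the 25-base window (0.375 and 0.0938). The remaining 4 did not pass: Motif 7 (CATCNCTA; 1.21% of all), the E-box (CAGCTG; 3.1%), the initiator (TCAGTT or TCAGTC; 9%) and the Zelda site (CAGGTA; 1.6%) were at 12, 16, 29 and 9 summits against 5, 30, 24 and 11 flanks. The E-box was less frequent at summits past the threshold when replicate 1, 2 or 3 was left out (exact McNemar test, adjusted p = 0.00195, 0.0453 and 0.0118). The limit given above for the flanks holds for these contrasts too, and base composition moved with them. Mean GC was 30.6% ± 9.83 (SD over 369 windows) at the summits and 49.6% in the flanks, and the part of composition in the counts was not tested.

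Against one-directional promoter summits, 3 of the 12 sequences were more frequent and 1 less. The DRE was at 3.52% against 0.988% (Fisher's exact test, adjusted p = 0.0129), Motif 6 at 8.13% against 4.06% (adjusted p = 0.0154) and TATAAA at 32.2% against 21.1% (adjusted p = 0.000465). GAGA was at 7.32% against 13.3% (Fisher's exact test, adjusted p = 0.0120). The mean GC content at one-directional summits was 34.97% ± 10.9, and in the replicates it was 36.1% ± 1.19 (SD, n = 3) against 31.6% ± 1.33 at divergent ones. Within summits of below-median GC the TATAAA difference was 5.21 points (Fisher's exact test, adjusted p = 0.850) and above it 5.55 points (adjusted p = 0.0940), and GAGA in the low-GC summits differed by 0.400 points the other way. Without replicates 1, 2 and 3 the DRE call was lost (Fisher's exact test, adjusted p = 0.164, 0.327 and 0.0546). That of Motif 6 was lost without replicates 2 and 3 (0.158 and 0.0546), as was that of GAGA (0.134 and 0.0546). TATAAA kept its call without each of them.

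Matches to some promoter elements were most frequent away from the summit. In bins of 50 bases, the E-box was found in 8.67% of windows 150 to 101 bases before the summit and 8.13% of those 100 to 149 bases after it, but in 1.90% and 2.44% of the bins next to it. The BEAF-32 site had 15.7% in both of the outer bins and 11.7% and 9.76% at the summit. The DRE was most frequent 100 to 149 bases after the summit, at 4.34%. TATAAA did the opposite, with 20.3% and 17.1% of the bins next to the summit and 4.88% and 2.44% at the ends. Mean GC fell from 50.5% at 500 bases to 30.2% beside the summit. These are descriptions over 369 windows, and the nearest starts lie at a median of 98 and 195 bases.

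**Figure D4:**
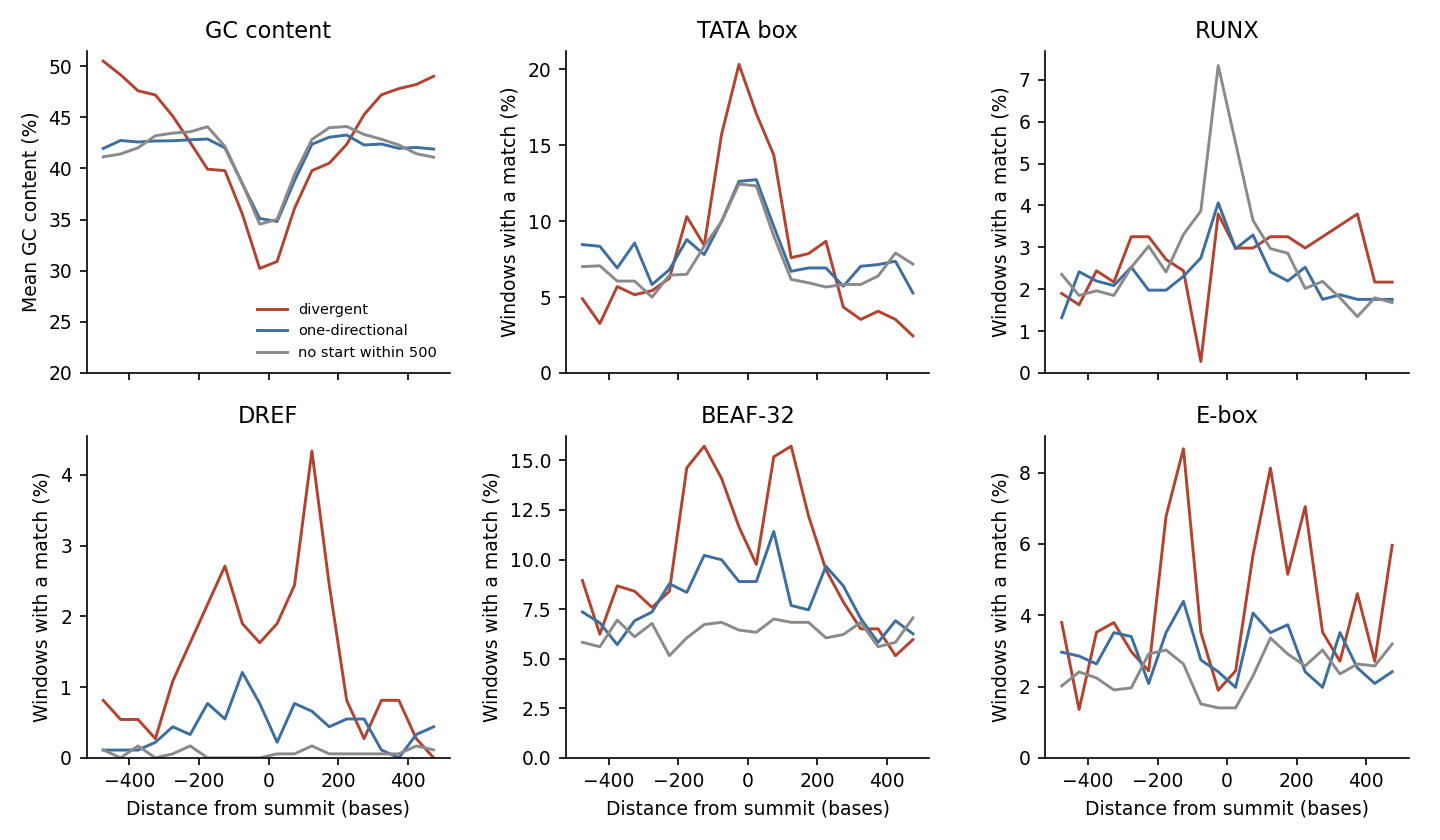
Mean GC content and the share of 50-base windows with a match to 5 sequences, by distance from the summit in bases, for divergent promoter, one-directional promoter and other IDR peaks. At divergent promoters TATAAA reaches 20.3% beside the summit, the E-box reaches 8.67% over 100 bases from it, and RUNX shows no peak like the one of the summits without a start.

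The nearest starts of the 13 members with a DRE included those of the cytoplasmic ribosomal protein genes RpS25, RpL34a, RpL41 and RpL36. These were named after their values were seen. Of all 369 members, 27 had a cytoplasmic ribosomal protein gene as a nearest start, and an association with the DRE was not tested. Of the 5 strongest members with a DRE, 4 are given here. They were at RpS25 and CG4820 (489), RpL34a and the tRNA methyltransferase gene Trmt61 (556), the splicing factor gene Sf3b2 and CG17219 (778), and CG32856 and Rbf2, of the retinoblastoma family (1086). At these 4 the DRE lay 14, 10, 2 and 43 bases from the summit. The summit was 38, 46, 21 and 11 bases from the nearer start, which was that of the first gene named in each pair.

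Of the 12 sequences, 1 differed in frequency between divergent promoters with and without an IDR summit. In windows of 101 bases at the middle of 2469 annotated head-to-head stretches, Motif 6 was found in 36 (10%) of the 360 with an IDR summit and 5.45% of the 2109 without (4.55 points, interval 1.66 to 8.19; Fisher's exact test, adjusted p = 0.0215). The other 11 did not pass. The DRE was at 3.61% with a summit and 5.03% without (interval of the difference −3.22 to 1.20), RUNX at 1.94% and 3.22% (−2.59 to 0.844), the BEAF-32 site at 21.4% and 23.8% (−6.76 to 2.45) and TATAAA at 27.2% and 22.9% (−0.394 to 9.45). Mean GC was 31.3% ± 11.0 (SD over stretches) with a summit and 33.7% ± 10.3 without. This comparison was added after the data had been seen.

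Cytoplasmic ribosomal protein genes had the largest share of members among the lists with at least 10 genes so arranged. Of all 5141 protein-coding genes with an opposite start close enough for a summit to reach both, 747 (14.5%) had a divergent promoter peak. Of 53 such ribosomal protein genes 26 had one (49.1%), and the replicates' own strongest peaks gave 22, 26 and 24 (24 ± 2, SD, n = 3). Among the strongest were RpL34b (rank 146) and RpS27 (286), and the 26 had a median rank of 1050. In 23 of the 26 the summit lay upstream of the ribosomal protein start. It lay a median of 47.5 bases from that start and 214.5 bases from the partner's, and was the nearer to the ribosomal protein gene in 24 of 26. Over all 747 genes the median distance to the start was 140 bases. Ribosomal protein genes without a divergent arrangement also carried promoter peaks, in 15 of 35 (42.9%), against 7.51% of 8804 such genes overall.

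Chromatin and insulator factors followed with 6 of 14 (42.9%), and 5, 6 and 6 in the replicates. Beside Chro and E(z) they were Cp190 (rank 117), an insulator protein, brm (593), the ATPase of the Brahma complex, and Dref and M1BP. Dref, which encodes the factor that binds the DRE, starts 84 bases from RpL13 and had its summit 48 bases upstream of its start (rank 672). M1BP, which encodes the factor that binds Motif 1, had its summit 196 bases upstream (rank 889), in a window of 8.91% GC, and ranked 3513 in replicate 1 against 683 and 761 in the others. Neither summit held the DRE or Motif 1 in its window. Genes of this list without a divergent arrangement also carried promoter peaks, in 2 of 6 (33.3%), against 7.51% of 8804 such genes overall.

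Other housekeeping lists lay nearer the background, with counts that varied between replicates. All arranged genes together gave 857, 723 and 758 of 5141 in replicates 1, 2 and 3. Mitochondrial ribosomal proteins had 9 of 59 (15.3%), but these included strong peaks, at mRpS10 (rank 10), mRpS23 (15) and mRpL23 (88). The replicates gave 14, 9 and 14 of 59. Translation factors and tRNA synthetases had 8 of 44 (18.2%; eIF4EHP at 50, IleRS at 647, SerRS at 887), Mediator and general transcription factors 6 of 36 (16.7%; Taf5 at 370, Taf2 at 411, MED30 at 785), the respiratory chain 7 of 44 (15.9%; ND-ASHI at 745, ND-51 at 1269, ND-MWFE at 1508) and the proteasome 3 of 26 (11.5%; Rpn13 at 1488, Rpn3 at 2443, Rpn6 at 2816). In replicates 1, 2 and 3 these numbered 8, 6 and 7 for translation, 8, 6 and 6 for Mediator and general transcription, 8, 3 and 8 for the respiratory chain and 3, 4 and 3 for the proteasome.

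Over all 13945 protein-coding genes, 5141 (36.9%) had an opposite start in reach. Of 33 genes of segmentation, the process Runt is best known for, 1 had such a start and it had no peak, and of 12 sex-determination genes 2 had one and neither had a peak. Bgb was the only member among 2 such genes of the RUNX list. None of 27 adult chemoreceptor genes and none of 11 cuticle protein genes so arranged had a divergent promoter peak. The share over all arranged genes was 14.5%. Lists of 1, 2 or 11 such genes are too small to show a lack of peaks. Without a divergent arrangement, 2 of 32 segmentation genes, 2 of 10 sex-determination genes and 2 of 5 of the RUNX list carried promoter peaks. None of 152 such chemoreceptor genes and none of 99 such cuticle protein genes did, against 7.51% of 8804 genes overall. These shares have no test, since the lists were drawn up with results of these data known, and genes that share a promoter share its peak.

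**Figure D5:**
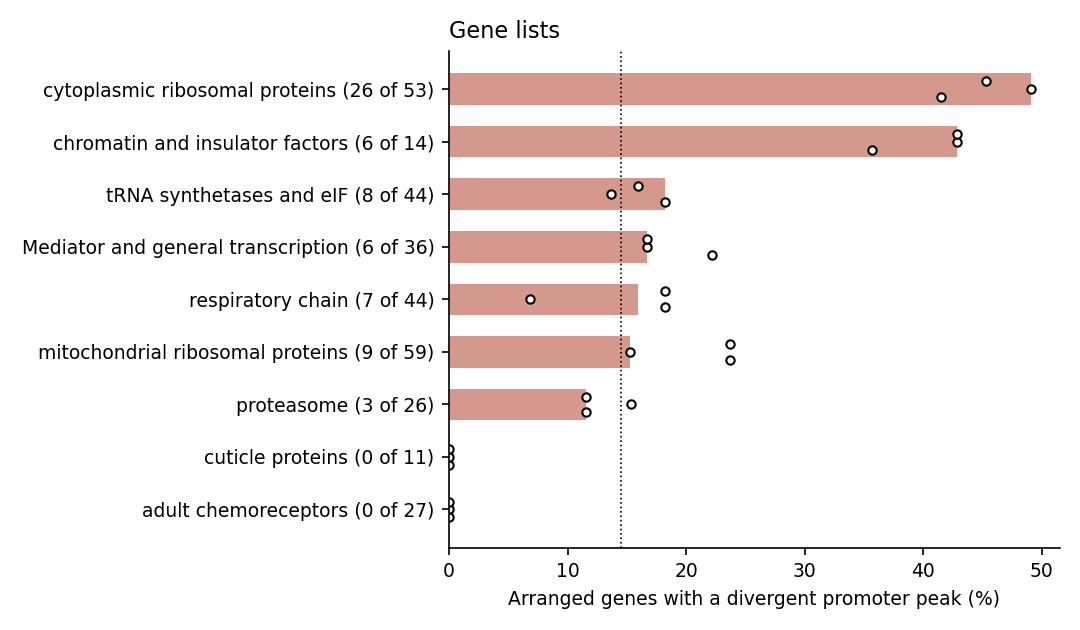
Share of divergently arranged genes of each list that had a divergent promoter peak, in percent, for lists with at least 10 such genes. Bars are the IDR list, open circles the 3 replicates' own strongest peaks, and the dotted line is the share over all 5141 such genes, 14.5%; cytoplasmic ribosomal protein genes reached 49.1%.

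Divergent promoters took a smaller share further down the pooled list of 30000 peaks, and so did one-directional promoters. Peaks of rank 1 to 3000 were divergent in 12.1% of cases, those of rank 3001 to 6000 in 8.5% and those of rank 6001 to 9000 in 6.27%. One-directional peaks made up 29.8%, 28.2% and 23.4% of the same classes. Over these classes the share of divergent summits lying between the starts was 78.8%, 68.6% and 61.2%, and the DRE was at 3.57%, 5.88% and 6.91% of divergent summits. Within the 369 members, split into 3 equal parts by rank, mean GC at the summit was 27.5%, 30.9% and 33.4%, and RUNX was at 5, 7 and 9 summits of 123. These are descriptions of 1 ranked list, with no test.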

How the data were processed

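Whole-embryo Runt-GFP ChIP-seq peaks were deposited for 3 biological replicates, numbered as in the labels, with a list from the pooled replicates and a shorter one thresholded by the authors on the irreproducible discovery rate (IDR). Per the readme files among the deposited data, 1 control was shared by all replicates, which ties their lists together. The aligner, caller and cutoff were not given in the sources used here. Each peak's signal value comes from the authors with no stated scale, and only its order inside 1 list was used. The authors' −log10 q-values reached 3.82 for every IDR peak and ranked none. The IDR list equals the 3065 strongest of 30000 pooled peaks. Sequencing depth is unknown, and intervals and upper limits (3 counts where none were found) cover counting error only.

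Summits were read as start plus offset on dm6, whose arm lengths match the Ensembl release 115 annotation of BDGP6.54. Coordinates are 1-based. Protein-coding transcript starts within 500 bases decided the class. Every base was classed the same way for densities. Matches needed 1 shared base. Sequences were searched on both strands within 50 bases of the summit, in RefSeq's Release 6 genome, and p-values were adjusted by Benjamini-Hochberg over 12 sequences. X against autosomes was compared between promoter classes by an exact test conditional on the margins (Fisher's noncentral hypergeometric distribution). Peaks are the units of every p-value, and replicates enter as values with no test, since a two-sided exact sign test over 3 of them cannot go below 0.25. Replicate values come from each replicate's own 3065 strongest peaks. A replicate was left out by keeping IDR peaks that were matched among the strongest peaks of both others.

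The members, gene lists, sequences and tests were chosen with earlier results of these data known. Named genes were the nearest starts of the 12 strongest members, the 6 shortest head-to-head distances, the 5 strongest members with RUNX or with the DRE, 3 genes of each list, 3 peaks either side of the 500-base limit and the 3 stretches with most summits. Some items that this rule names are not reported here. The exact binomial test of densities, Fisher's exact test and the exact McNemar test were tried on simulated data first. The conditional test of X against autosomes between promoter classes was not. Statistics used scipy 1.17.1 with numpy 2.4.6, tables pandas 2.3.3 and plots matplotlib 3.10.9, under Python 3.11.15.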

Additional observations from a re-analysis of the deposited data

How the results depend on the processing

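Results were recomputed with start limits of 250 and 1000 bases, 1 start per gene, starts of any biotype, head-to-head members only, the 1532 strongest IDR peaks, 6130 pooled peaks, windows of 25 and 100 bases, other flanks, summits below or above the median GC and without each replicate. The density ratio of divergent over one-directional promoters kept its direction and call, between 2.31 (1000 bases) and 5.23 (250 bases), and so did the ratio of X over autosomes, between 0.398 (250 bases) and 0.611 (1000 bases), in settings added after the data were seen. The share among the 1532 strongest peaks became −0.202 points at 1000 bases and passed with 6130 peaks (7.35 points), and it ran from 2.28 to 6.54 points when a replicate was left out. The matched share became −0.849 points at 1000 bases and ran from −3.74 to 3.11 without 1 replicate. RUNX against flanks became −0.784 points at 250 bases and −0.542 with the 25-base window, and against one-directional promoters −5.36 at 250 bases (past the threshold) and 3.71 at or above the median GC. Of the 12 sequences, those more frequent than in flanks numbered 2 with the 25-base window, and those less frequent 2 at 250 bases, with starts of any biotype, among the 1532 strongest and without each replicate (2 to 2), and 0 with the 25-base window or the lower flank. Those more frequent than at one-directional promoters numbered 1 at 250 bases, with 1 start per gene and with the 25-base window, 0 among the 1532 strongest and below the median GC, 5 with 6130 peaks, with the 100-base window and at or above the median GC, and 1 to 2 without a replicate. Those less frequent numbered 0 with 1 start per gene, any biotype, the 1532 strongest, the 25-base window and below the median GC, 2 with 6130 peaks, and 0 to 1 without a replicate. For GAGA below the median GC the difference was 0.400 points. For each of these the cause was not tested, and the shorter lists also hold fewer peaks. Calls of single sequences were lost with the direction kept in 44 of 154 cases. In 1 more, that of GAGA below the median GC, the call was lost and the direction reversed. No paired analysis was possible because all samples form 1 group, so that replicate numbers pair no samples across groups. Depth is unknown and limits which weaker peaks reach the lists.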
